A study of Apis mellifera with 36 samples.

Results

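The genes described here are the honeybee genes whose annotated protein product carries a name from the Wnt, Hedgehog, BMP, Notch or EGF signalling pathways, from ligands such as Wnt4, Serrate and Hedgehog to receptors, intracellular transducers and inhibitors. They were found by searching the mRNA product names of the annotation deposited with the data for the words Wnt, wingless, frizzled, dishevelled, axin, arrow, hedgehog, patched, smoothened, cubitus, decapentaplegic, bone morphogenetic, TGF-beta, mothers against, short gastrulation, tolloid, notch, protein delta, serrate, fringe, epidermal growth factor, rhomboid, spitz, fibroblast growth factor and sprouty. Homeobox and cadherin genes were left out. The search found 68 of the 12365 genes in the table of counts. Of these, 47 are components of a signalling pathway by their product name, namely 13 of Wnt, 8 of Hedgehog, 5 of BMP and TGF-beta, 6 of Notch, 14 of EGF and 1 of FGF signalling. The other 21 contain one of the words by chance of spelling or in another sense, for example "axin" in syntaxin, and are described on their own at the end. The names placed each gene in its group, except for rho-7, rhomboid-7. It was set among the 21 as a mitochondrial gene, while the other rhomboid genes were counted under EGF.

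RNA was sequenced from 36 single embryos of the honeybee *Apis mellifera*, laid by 2 queens. Female embryos are future workers, which develop from fertilized eggs and are diploid, and male embryos are future drones, which develop from unfertilized eggs and are haploid. Females and males were collected from worker and drone cells of the comb at 24, 48 and 72 h after egg laying, 3 embryos for each queen, sex and time, so that each of the 6 groups of sex and time holds 6 embryos. No group carries a transgene, mutation or treatment, and the sex of an embryo rests on the cell in which the egg lay. The labels give each queen a batch of her own, and the effect of the one cannot be told apart from that of the other.

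The pathways have few parts and are used again and again in animal development. A secreted or membrane-bound ligand binds a receptor on the same or a neighbouring cell, and the signal ends on a transcription factor in the nucleus. Wnt proteins bind Frizzled receptors and act through Dishevelled, Hedgehog binds Patched and thereby releases Smoothened, which acts through Cubitus interruptus, and BMP ligands such as Decapentaplegic act through Smad proteins such as Mad. Delta and Serrate sit in the membrane of one cell and bind Notch on the next, and ligands of the EGF receptor such as Spitz are cut free by Rhomboid proteases. In the *Drosophila* embryo these pathways pattern segments, the dorsoventral axis, the nervous system and the tracheae.

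Levels are given as CPM, counts scaled by the library total after TMM normalization, by which edgeR corrects for differences in the composition of libraries. A gene was called higher or lower when the quasi-likelihood test of edgeR gave an adjusted p below 0.05 and the log2 fold change was over 1 in size, and the verbs rose and fell refer to such calls only. SE is the standard error of the log2 fold change. The test was fitted once to all 36 embryos and 9575 genes, with a term for the queen, and p-values were adjusted over all 9575 genes. It took in 65 of the 68 genes and 44 of the 47 pathway genes. The 3 that had too few counts were Wnt6, the BMP5-like ligand LOC724246 and the rhomboid-related LOC100578074. All 68 genes had a count in at least 1 embryo, and 50 of them, 32 of the pathway genes included, had one in all 36 embryos. In RNA of whole embryos, fewer cells that express a gene and less RNA per cell cannot be told apart.

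Counts summed to between 1195774 and 12808580 per embryo and were lowest in 72 h males, where the analysed genes held 19.7 to 30.4% of the library total behind the RPKM of the authors, against 61.8 to 69.6% in 72 h females. The choice of the total therefore matters. With the RPKM total as library size, the median log2 fold change of all genes between females and males moved from 0.18 to 0.98 at 48 h and from 0.41 to 3 at 72 h, and that between 72 and 48 h in males from -0.11 to -1.52. Genes whose sign turned with the scaling are named as such. Genes that were not called were judged with TMM only and may differ with the RPKM total. Transcripts with names used for germ line genes, from vasa and aubergine to tudor-SN, summed to 14600 to 17780 CPM in 24 h females and 15900 to 17100 CPM in 24 h males. This list holds 9 tested genes beside an aubergine model too low to be tested. Later its genes summed to 1024 to 1792 CPM in 48 h females and 605.4 to 630.6 CPM in 72 h females, but to 20910 to 35030 CPM in 48 h males and 18880 to 26890 CPM in 72 h males. In females at 48 h 6 of the 9 genes were lower than in males and 1 was higher, beside 27.6% and 33.7% of all genes. At 72 h the same numbers held, beside 26.8% and 38.2%. The sum of the list thus differed between the sexes in every comparison after 24 h. The part of the list in these comparisons was not tested. Of 6 tested muscle genes 2 were higher and 3 lower in 72 h females than in males, beside 38.2% and 26.8% of all genes. The sum of the muscle genes was 186.5 to 327.6 CPM in females and 64.1 to 100.5 CPM in males. Of 17 tested neuron genes 6 were higher and 8 lower in 72 h females, beside the same shares, with sums of 238.6 to 295.8 CPM in females and 1033 to 1466 CPM in males. Fat body and gut genes summed to 25.53 to 33.25 CPM in 72 h females and 296.4 to 419.7 CPM in 72 h males, and cuticle genes to 183.7 to 334.3 and 197.4 to 262.2 CPM. At 48 h 2 of 5 tested fat body and gut genes were higher and 3 lower in females, beside 33.7% and 27.6% of all genes. Of 15 tested cuticle genes 7 were higher and 7 lower. The lists rest on product names and take in chymotrypsin inhibitors under fat body and gut and CUGBP Elav-like genes under neuron. The part of these lists was not tested either. Among males, embryo 6 of queen 1 at 48 h and embryo 23 of queen 2 at 72 h stood apart from their groups in several of the genes. Without both, 8 of the 116 called values that were refitted lost their call and 0 turned sign, and these 8 are given with and without them.

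At 24 h none of the 65 genes was called between females and males. The quasi-likelihood test called 0 higher and 0 lower, against 0.0104% and 0.0836% of all genes tested, and the Wald test of DESeq2 also called 0. An unadjusted p-value under 0.05 was found for 8 of the 65, 6 of which are pathway genes, against 15.1% of all genes. At 48 h 21 of the 65 were higher and 15 lower in females than in males, beside 33.7% and 27.6% of all genes, and at 72 h 26 were higher and 16 lower, beside 38.2% and 26.8%. Among the 44 pathway genes 15 were higher and 11 lower at 48 h, and 17 higher and 13 lower at 72 h. The share of genes called was thus near that of all genes. With the RPKM total as library size 36 of the 65 were higher and 8 lower at 48 h, and 53 were higher and 4 lower at 72 h. Without both male embryos that stood apart the counts were 21 higher and 16 lower at 48 h and 25 higher and 16 lower at 72 h. Of the 36 genes called at 48 h 31 had the same sign in each queen alone and the other 5 could not be fitted within a queen. At 72 h this held for 41 of 42, and the other 1 could not be fitted.

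All called Hedgehog genes were higher in females, 4 of 8 at 48 h and 6 of 8 at 72 h, with median log2 fold changes of 1.28 and 3.57. The called Notch genes were lower in females, 4 of 6 at 48 h and 3 of 6 at 72 h, with medians of -1.79 and -0.96, although 1 of those 3, LOC100578826, turned sign with the RPKM total. Wnt genes were split, with 5 of 12 higher and 4 lower at 48 h and 3 higher and 5 lower at 72 h, and so were EGF genes, with 5 of 13 higher and 2 lower at 48 h and 7 higher and 4 lower at 72 h. By role, 7 of the 8 receptors of these pathways were higher in females at 48 h and 1 was lower, with a median of 1.84, while of 13 ligands 3 were higher and 5 lower, with a median of -0.57. The receptors include 2 neighbouring gene models named for the EGF receptor, which may be parts of a single gene. At 72 h 5 receptors and 3 ligands were higher and 6 ligands were lower, of which Wnt5, Wnt10 and Wnt11 turned sign with the RPKM total. For comparison, the median over all genes was 0.18 at 48 h and 0.41 at 72 h. Genes without a count in one group lie above these medians at their lower bound as well as at their fitted value, so that the medians are the same with either.

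**Figure D1:**
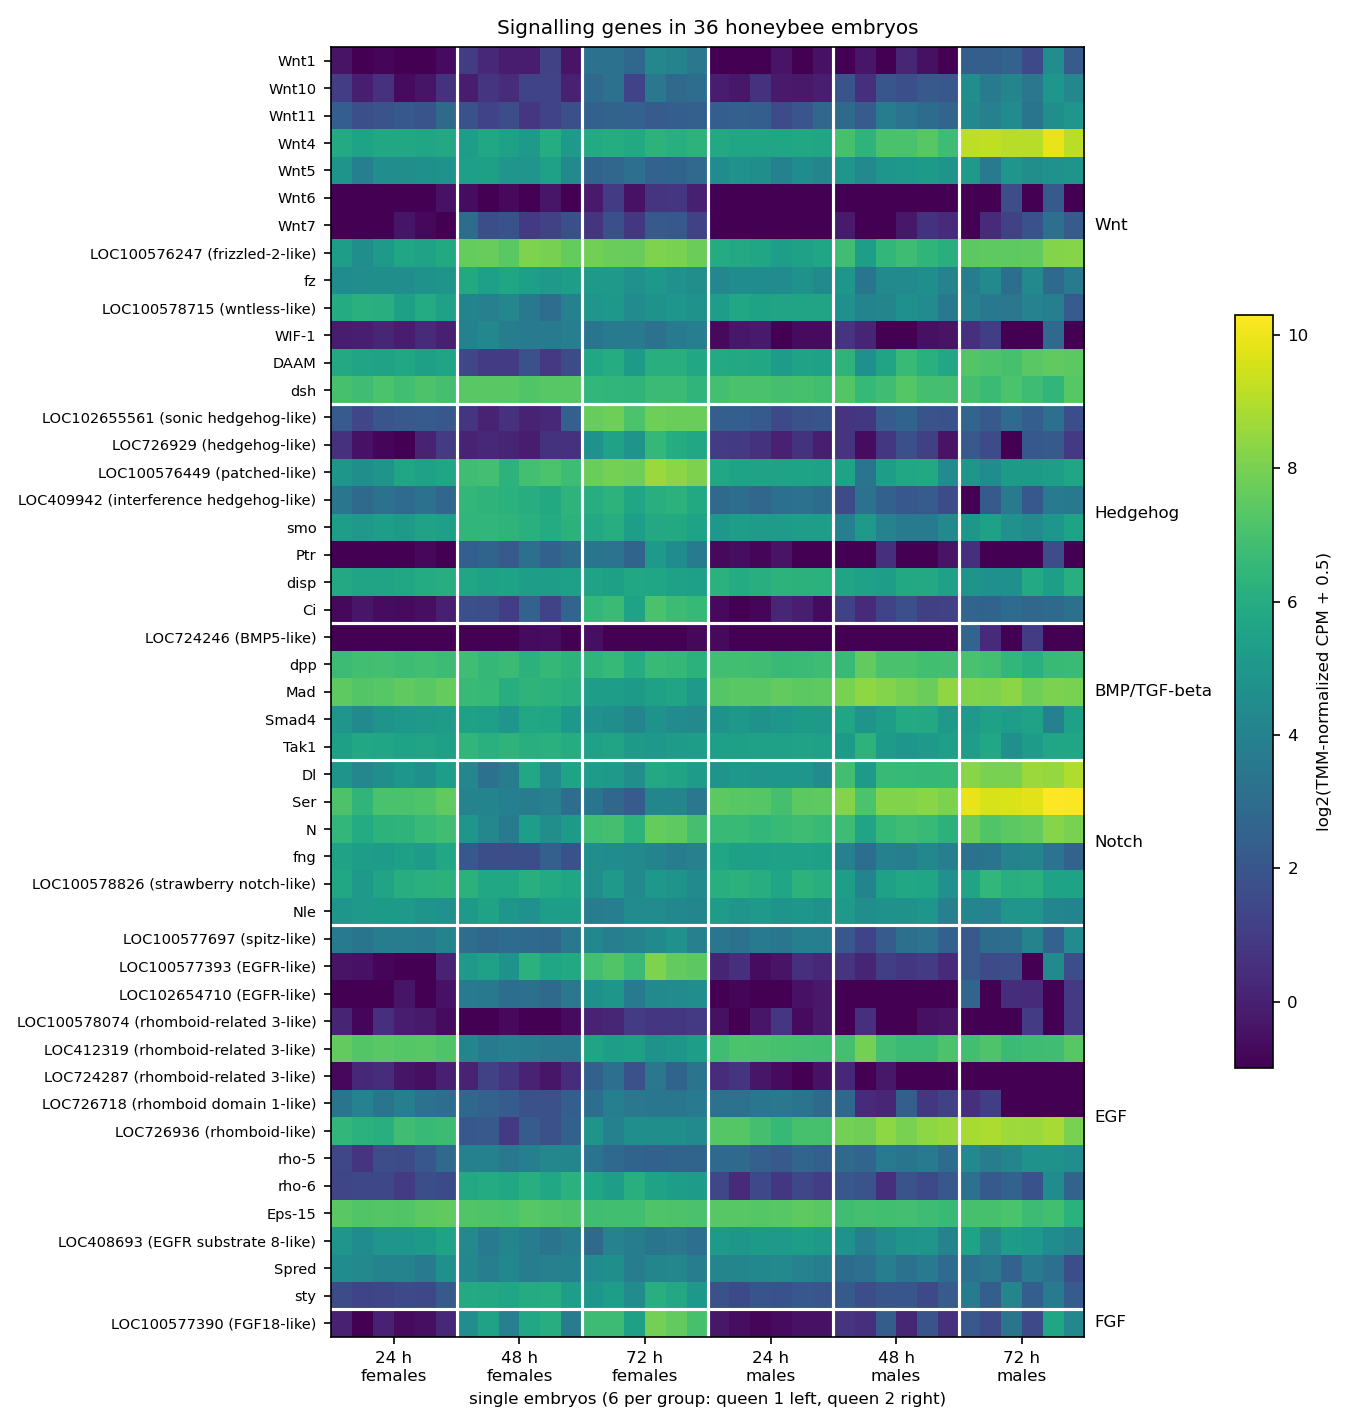
Heatmap of the 47 pathway genes (rows, grouped by pathway) in the 36 single embryos (columns, grouped by time and sex, queen 1 left and queen 2 right within each group), coloured by log2 of the TMM-normalized CPM plus 0.5. Females and males of 24 h look alike, the Hedgehog ligands light up in 72 h females only, and Serrate, Delta and Wnt4 are brightest in 72 h males.

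Both Hedgehog ligands were low until 48 h and then rose in females. LOC102655561, annotated as sonic hedgehog protein-like, spans positions 3184049 to 3193728 of linkage group 12 (Amel_4.5, minus strand). LOC726929, annotated as hedgehog-like, spans 3030118 to 3074919 of the same strand. LOC102655561 ran from 135 to 224 CPM in 72 h females, with a median of 216, and from 2.81 to 8.15 CPM in 72 h males, with a median of 5.27. At 48 h it had a median of 0.9 CPM in females and 3.15 CPM in males. All 6 females of 72 h thus stood above every male and every younger female. Its log2 fold change was 5.21 ± 0.34 (SE) between the sexes at 72 h (adjusted p = 1.35e-17) and 7.04 ± 0.31 between 72 and 48 h in females (adjusted p = 8.14e-22). From 24 to 48 h it had fallen in females, by 1.23 ± 0.34 on the log2 scale (adjusted p = 0.000991). LOC726929 followed the same course at a lower level. It ran from 26.9 to 90.9 CPM in 72 h females, with a median of 49.2, and from 0 to 4.08 CPM in 72 h males, with a median of 3.15. Here too no male reached the lowest female, and the difference was 4.21 ± 0.46 (adjusted p = 9.03e-11). The step from 48 to 72 h differed between the sexes by 6.16 ± 0.55 for LOC102655561 (adjusted p = 1.99e-12) and by 4.79 ± 0.81 for LOC726929 (adjusted p = 3.49e-06). Each queen gave the same result, with log2 fold changes of 5.04 and 5.38 for LOC102655561 at 72 h and of 3.99 and 4.37 for LOC726929.

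The receptor side of Hedgehog signalling separated the sexes a day earlier. LOC100576449, annotated as patched-like and thus the presumed Hedgehog receptor, spans 2209351 to 2255923 of linkage group 5. It had a median of 37 CPM in females and 45.8 CPM in males at 24 h. Females then ran from 77.8 to 137 CPM at 48 h, with a median of 117, and from 220 to 393 CPM at 72 h, with a median of 256. Males ran from 9.63 to 58.5 CPM at 48 h and from 22.1 to 50.6 CPM at 72 h, below every female of the same age. The log2 fold change was 1.61 ± 0.22 at 48 h (adjusted p = 1.65e-08) and 2.98 ± 0.25 at 72 h (adjusted p = 3.11e-14). Some exons of this gene overlap those of LOC102656494 on the same strand, so that its reads may be shared. LOC409942 is interference hedgehog-like, a co-receptor that in *Drosophila* presents Hedgehog to Patched. It ran from 57.2 to 89.6 CPM in 48 h females, with a median of 77.3, and from 2.61 to 8.84 CPM in 48 h males, with a median of 4.14. It differed by 3.94 ± 0.25 at 48 h (adjusted p = 6.11e-18) and by 3.31 ± 0.29 at 72 h (adjusted p = 2.55e-13), again without overlap.

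Smoothened, which carries the signal into the cell, differed at 48 h and less so later. Expression of smo ran from 61 to 86 CPM in 48 h females, with a median of 77.9, and from 11.6 to 34.2 CPM in 48 h males, with a median of 14.8. Among the males, embryo 6 of queen 1 was the highest, and it stayed below all females. The log2 fold change was 2.07 ± 0.19 (adjusted p = 2.62e-13). At 72 h the groups overlapped, with medians of 55.8 and 30.2 CPM, and the difference of 0.72 ± 0.2 did not reach the fold threshold. The step from 48 to 72 h differed between the sexes by -1.36 ± 0.27 (adjusted p = 4.4e-05), a sign that turned with the RPKM total. Cubitus interruptus, the transcription factor at the end of the pathway, rose in both sexes. Ci went from a median of 0.17 CPM at 24 h to 2.78 CPM at 48 h and 98.7 CPM at 72 h in females, and from 0.113 to 1.85 and 6.48 CPM in males. Male embryos held 5 to 9 counts of Ci at 48 h and 5 to 8 at 72 h. The size of the male rise between these times thus depended on the total. Females of 72 h, from 46.3 to 134 CPM, lay above all males, from 5.72 to 8.43 CPM. The difference was 3.84 ± 0.28 (adjusted p = 9.06e-16), and the step from 48 to 72 h differed by 2.88 ± 0.47 (adjusted p = 2e-06).

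The remaining Hedgehog genes set off the pattern from opposite sides. Ptr, patched-related, a membrane protein with the same domain as Patched, had 1 count over the 6 females of 24 h and ran from 3.99 to 8.64 CPM at 48 h, a ratio of 375 with an exact 95% counting interval from 66.7 to 1.49e+04, which covers counting error only. It was higher in females by 5 ± 0.58 at 48 h (adjusted p = 3.34e-10). At 72 h the 6 males held 3 counts together, and the ratio of females to males was 31.1, with an interval from 10.6 to 151. The gene disp, dispatched, which releases lipid-bearing Hedgehog from the cells that make it, was called in no comparison. Its medians lay between 33.3 and 73.9 CPM over the 6 groups, and in 24 h females it already had at least 47.2 CPM.

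**Figure D2:**
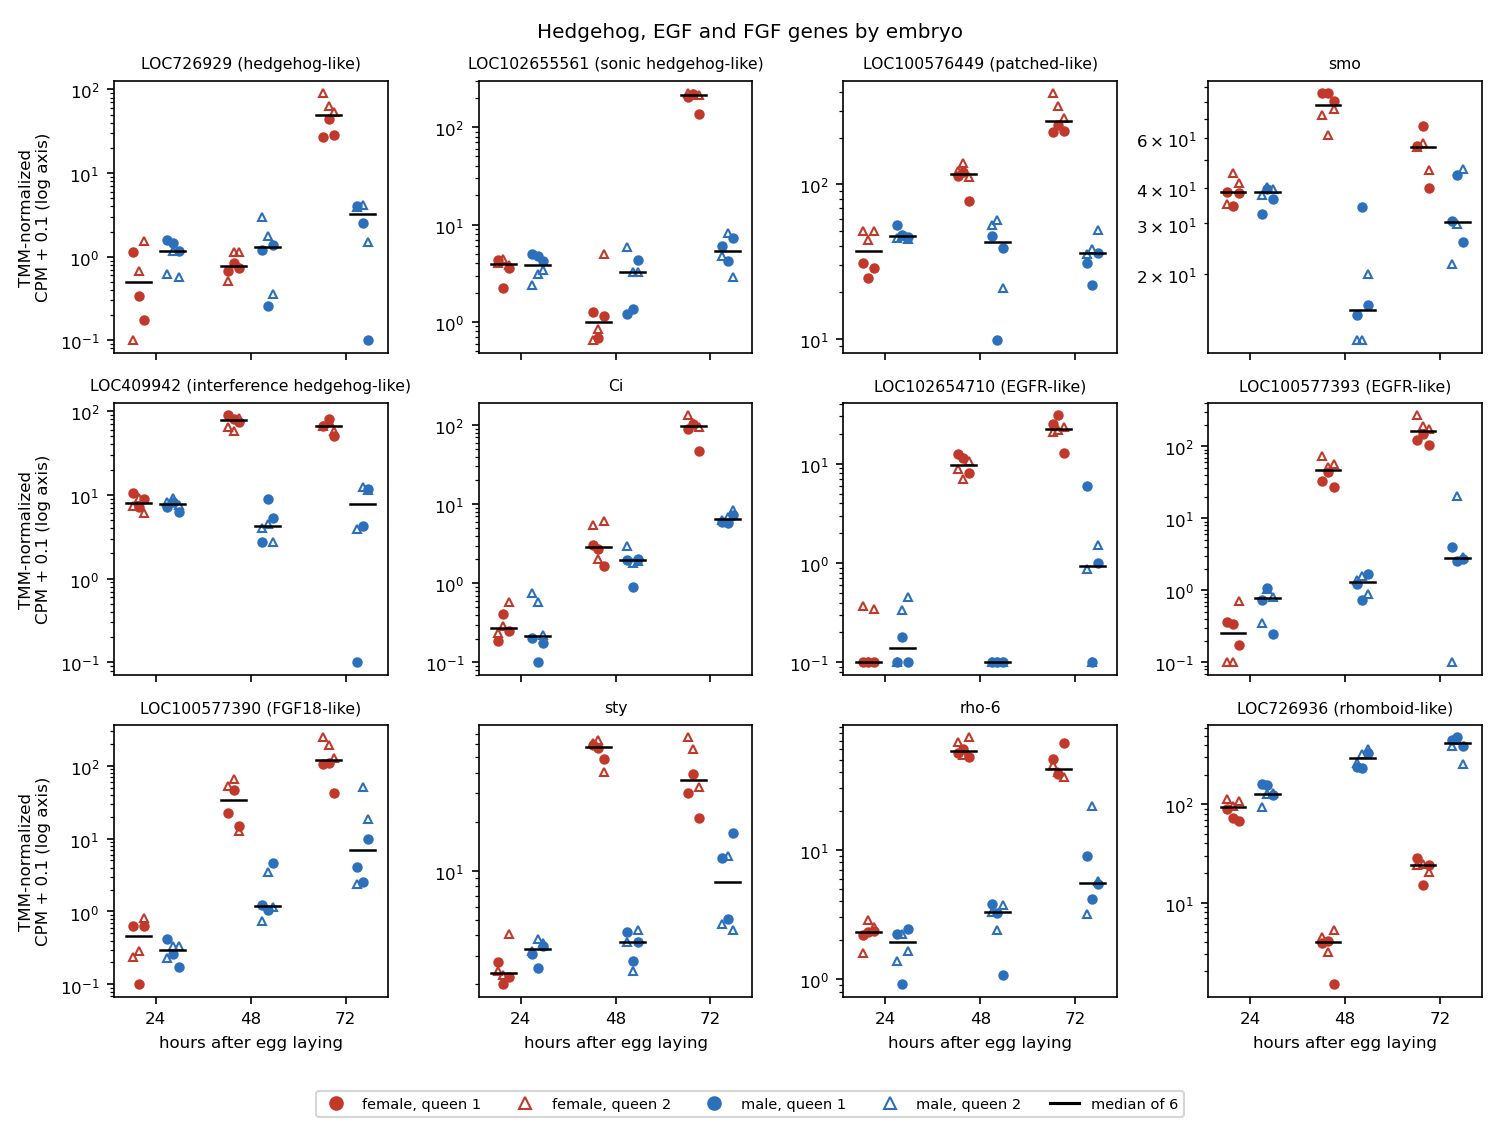
Levels of 12 Hedgehog, EGF and FGF genes by embryo (vertical axis, TMM-normalized CPM plus 0.1 on a log axis) against hours after egg laying (horizontal axis), in females (red) and males (blue) of queen 1 (filled circles) and queen 2 (open triangles), with the median of 6 embryos as a line. The Hedgehog ligands separate the sexes at 72 h only, whereas the patched-like receptor, LOC409942, both EGFR-like genes, sty and rho-6 are separated from 48 h on, and LOC726936 lies the other way, at a median of 3.88 CPM in 48 h females against 296 CPM in males.

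Of the Notch genes found by name, both ligands were lower in females after 24 h. Ser, serrate, spans 8489152 to 8591094 of linkage group 5, on the plus strand. In females it ran from 84.8 to 183 CPM at 24 h, with a median of 136, from 7.8 to 16.6 CPM at 48 h, with a median of 14.5, and from 4.25 to 17.9 CPM at 72 h, with a median of 10.4. In males it ran from 124 to 182 CPM at 24 h, with a median of 168, from 137 to 310 CPM at 48 h, with a median of 286, and from 772 to 1259 CPM at 72 h, with a median of 924. The sexes overlapped at 24 h and were far apart afterwards. The log2 fold change of females over males was -4.23 ± 0.24 at 48 h (adjusted p = 1.13e-19) and -6.5 ± 0.26 at 72 h (adjusted p = 1.22e-24), and it stayed at -3.89 at 72 h with the RPKM total. Without both male embryos that stood apart these values were -4.36 and -6.43. The queens gave -3.89 and -4.56 at 48 h and -6.93 and -6.23 at 72 h. Serrate fell by 3.28 ± 0.23 in females from 24 to 48 h (adjusted p = 1.3e-16) and rose by 1.9 ± 0.21 in males from 48 to 72 h (adjusted p = 8.6e-10). The size of this rise depended on the total, as the male medians of Serrate in RPKM of the authors were 17.2, 15.2 and 19.1 at 24, 48 and 72 h. In 72 h males it made up 23.3% of all counts on pathway genes.

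Delta, the other membrane-bound ligand, was lower in females at 48 and 72 h. Dl spans 11586716 to 11628960 of linkage group 11, on the minus strand. It had a median of 26.7 CPM in females and 29.4 CPM in males at 24 h. In females it ran from 8.82 to 54.7 CPM at 48 h and from 23.7 to 56.7 CPM at 72 h, and in males from 34.4 to 117 CPM and from 261 to 500 CPM. The groups overlapped at 48 h, through 2 females of queen 2 and the male embryo 6 of queen 1, and were apart at 72 h. The difference was -1.79 ± 0.26 at 48 h (adjusted p = 4.03e-08) and -3.15 ± 0.26 at 72 h (adjusted p = 3.26e-14), and at 72 h it was -0.56 with the RPKM total. Without both male embryos that stood apart the differences were -1.93 and -3.18. Delta rose in males in both steps, by 1.59 ± 0.25 and 1.96 ± 0.25. The size of these rises depended on the total, as the male medians of Delta in RPKM of the authors were 3.66, 6.2 and 8.46 at 24, 48 and 72 h. Its step from 24 to 48 h differed between the sexes by -1.68 ± 0.35 (adjusted p = 5.6e-05). Its step from 48 to 72 h differed between the sexes by -1.36 ± 0.35 (adjusted p = 0.0011), a sign that turned with the RPKM total.

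The Notch receptor and the enzyme that tunes it dipped in females at 48 h. The receptor gene N had medians of 84.3, 26.8 and 125 CPM in females at 24, 48 and 72 h and of 98.6, 96.6 and 202 CPM in males. At 48 h it ran from 11.8 to 39.1 CPM in females and from 47.4 to 110 CPM in males, without overlap, a log2 fold change of -1.79 ± 0.2 (adjusted p = 1.04e-10). It fell by 1.75 in females from 24 to 48 h and rose by 2.37 ± 0.2 from 48 to 72 h (adjusted p = 2e-13), while its rise of 1.25 in males from 48 to 72 h turned sign with the RPKM total. At 72 h the difference of -0.67 ± 0.19 was under the fold threshold. The gene fng, fringe, encodes a glycosyltransferase that changes how Notch responds to its ligands. Females ran from 37 to 52.9 CPM at 24 h, from 2.73 to 4.96 CPM at 48 h and from 13 to 23.1 CPM at 72 h. It fell in both sexes to 48 h, by 3.66 ± 0.2 in females and by 1.66 ± 0.18 in males, and was lower in females by 2.06 ± 0.21 on the log2 scale at 48 h (adjusted p = 9.63e-12). Then it rose again in females, by 2.45 ± 0.2 (adjusted p = 7.4e-14). Exons of fng overlap a gene on the other strand. The notchless gene Nle was called only between 72 and 48 h in females, at -1.01 ± 0.16.

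The Wnt ligands took separate courses. Wnt4, on linkage group 1 from 12630485 to 12688969, had the highest median RPKM of them in every group. In CPM the sexes lay close at 24 h, with medians of 52.9 and 50.9 CPM. Females ran from 33.7 to 63.5 CPM at 48 h and from 56.9 to 78.7 CPM at 72 h. Males ran from 81.8 to 162 CPM at 48 h and from 537 to 983 CPM at 72 h. No female reached the lowest male at either time, and the highest male of 72 h was embryo 23 of queen 2. Wnt4 was lower in females by 1.46 ± 0.15 on the log2 scale at 48 h (adjusted p = 2.01e-11) and by 3.22 ± 0.16 at 72 h (adjusted p = 1.9e-21), with values of -3.25 and -3.24 in the 2 queens and of -0.6 with the RPKM total. It rose in males by 1.25 ± 0.15 to 48 h and by 2.35 ± 0.16 to 72 h (adjusted p = 6.7e-15). The difference of this last step between the sexes, -1.76 ± 0.21, turned sign with the RPKM total. The size of both rises depended on the total as well, as the male medians of Wnt4 in RPKM of the authors were 15.6, 19.3 and 39.8 at 24, 48 and 72 h. Some exons of Wnt4, Wnt5 and Wnt11 overlap genes on the other strand, and whether the counting used the strand is not given in the sources used here.

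Wnt5, a ligand that in *Drosophila* guides axons, fell in females from 48 to 72 h. Its levels ran from 19.8 to 43.7 CPM in 48 h females and from 5.37 to 8.14 CPM in 72 h females, against 19.3 to 35.6 CPM and 12.3 to 34.5 CPM in males. The fall was 2.44 ± 0.2 on the log2 scale (adjusted p = 1.8e-13) and the step differed between the sexes by -2.23 ± 0.3 (adjusted p = 5.3e-08). The resulting difference of -2 ± 0.24 between the sexes at 72 h (adjusted p = 5.66e-10) turned sign with the RPKM total. Wnt11 had medians of 2.34 CPM in females and 7.23 CPM in males at 48 h and of 5.07 and 20.6 CPM at 72 h. It differed by -1.73 ± 0.29 at 48 h (adjusted p = 8.14e-07) and by -1.96 ± 0.28 at 72 h (adjusted p = 5.27e-08), the latter with a sign that turned with the RPKM total.

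Wnt1, Wnt6 and Wnt10 lie close together on linkage group 1, from 21361480 to 21373558, from 21386484 to 21408317 and from 21429007 to 21441999. Wnt1, the counterpart of the segment polarity gene wingless, had 72 h levels from 6.37 to 18.5 CPM in females and from 2.31 to 23.1 CPM in males. The groups overlapped through the male embryo 23 of queen 2, and the difference at 72 h, 0.69 ± 0.44, was not called. In females it rose from 24 to 48 h by 3.09 ± 0.71 (adjusted p = 0.000135), with overlapping groups. Wnt1 rose from 48 to 72 h in females by 3.72 ± 0.44 (adjusted p = 1.5e-09) and in males by 4.95 ± 0.71 (adjusted p = 2.4e-07), which was 4.68 without both male embryos that stood apart. Its call at 48 h, 1.92 ± 0.78 (adjusted p = 0.0233), was lost when any of 3 embryos was left out. Wnt10 rose in males from 24 to 48 h by 2.44 ± 0.48 (adjusted p = 4.65e-05), with overlapping groups, and from 48 to 72 h in both sexes, by 2.65 ± 0.41 in females and 2.62 ± 0.43 in males. Its medians at 72 h were 7.4 CPM in females and 17.6 CPM in males. The difference of -1.39 ± 0.45 at 48 h (adjusted p = 0.00526) came with overlapping groups, and that of -1.36 ± 0.38 at 72 h (adjusted p = 0.0013) turned sign with the RPKM total. Wnt6 had a highest group median of 0.808 CPM, in 72 h females, and was counted in no male of 24 or 48 h. Wnt7 ran from 1.37 to 7.58 CPM in 48 h females and from 0 to 1.05 CPM in 48 h males, a difference of 3.02 ± 0.64 (adjusted p = 6.2e-05). The females of 24 h held 3 counts of Wnt7 together, and the ratio of 48 h to 24 h was 68.1, with an interval from 22.9 to 334. The males of 24 h held no count of Wnt7 and the males of 48 h held 10 counts together, with overlapping groups. Against a floor of 3 counts this is a ratio of 8.34, which leaves out counting error and the spread between embryos. At 72 h females ran from 1.18 to 4 CPM and males from 0 to 8.15 CPM, and the difference of -0.13 ± 0.63 was not called. Wnt7 rose in males from 48 to 72 h by 2.64 ± 0.82 (adjusted p = 0.00691), and that step differed between the sexes by -3.14 ± 0.93 (adjusted p = 0.00439). Without both male embryos that stood apart these values were 1.8 and -2.25, and neither was called.

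**Figure D3:**
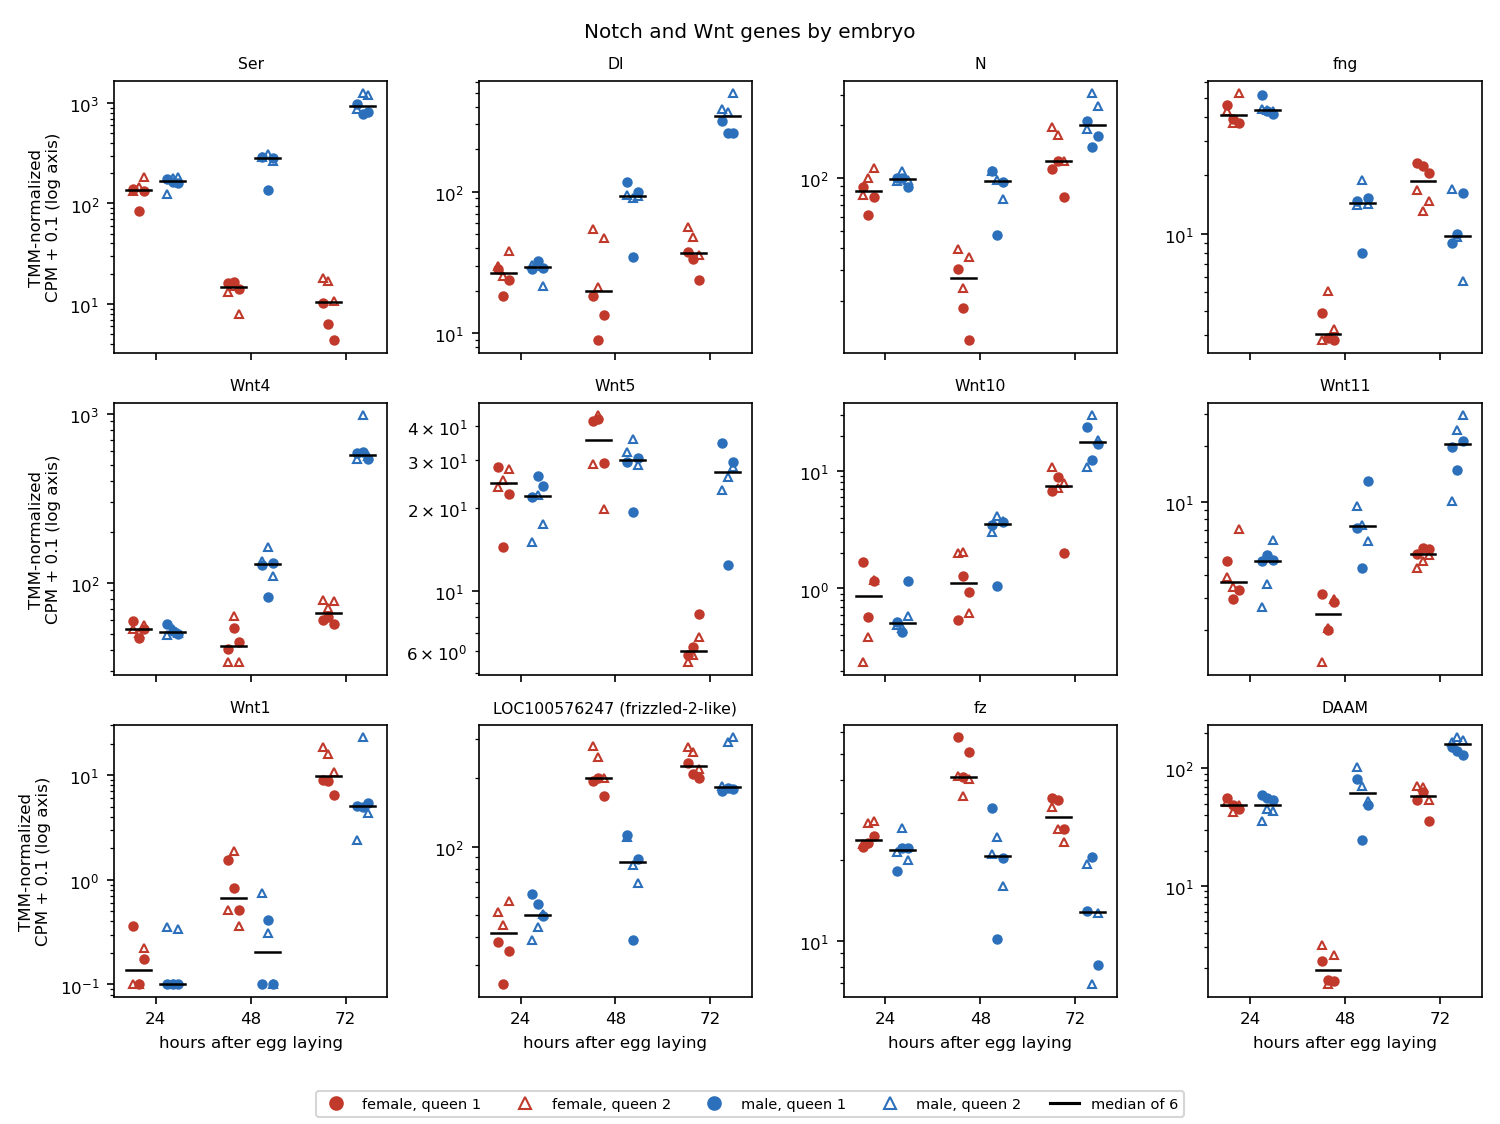
Levels of 12 Notch and Wnt genes by embryo (vertical axis, TMM-normalized CPM plus 0.1 on a log axis) against hours after egg laying (horizontal axis), in females (red) and males (blue) of queen 1 (filled circles) and queen 2 (open triangles), with the median of 6 embryos as a line. Serrate, Delta and Wnt4 are highest in 72 h males, at medians of 924, 342 and 572 CPM, and N, fng and DAAM dip in 48 h females. Between the sexes at 72 h, Wnt5, Wnt10, Wnt11 and DAAM turn sign when the RPKM total is the library size.

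The Wnt receptors were higher in females at 48 h. LOC100576247, annotated as frizzled-2-like, ran from 167 to 279 CPM in 48 h females and from 38.7 to 113 CPM in 48 h males, a difference of 1.36 ± 0.18 (adjusted p = 8.73e-09). It rose in females from 24 to 48 h by 2.38 ± 0.19, and by 72 h males had come near, with medians of 227 and 184 CPM and a difference of 0.11 ± 0.18 that was not called. The rise in males from 48 to 72 h, 1.38 ± 0.19, turned sign with the RPKM total. Exons of this gene overlap a gene on the other strand. The other receptor, fz, frizzled, was higher in females by 1.13 ± 0.19 at 48 h (adjusted p = 7.99e-07) and by 1.07 ± 0.23 at 72 h (adjusted p = 5.71e-05), and without both male embryos that stood apart these values were 0.96 and 0.97, under the fold threshold.

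Modulators and transducers of Wnt signalling differed from gene to gene. WIF-1 encodes a secreted protein that binds Wnt in vertebrates and whose *Drosophila* counterpart acts on Hedgehog. It ran from 11.8 to 19.1 CPM in 48 h females and from 0 to 1.12 CPM in 48 h males. The difference was 5.18 ± 0.43 at 48 h (adjusted p = 3.44e-14) and 3.12 ± 0.48 at 72 h (adjusted p = 2.4e-07). LOC100578715, wntless-like, is named for the carrier that brings Wnt proteins to the cell surface. It fell from 24 to 48 h in both sexes, by 2.07 ± 0.18 in females and by 1.3 ± 0.18 in males, and was higher in females at 72 h by 1.22 ± 0.23 (adjusted p = 7.3e-06). DAAM, a formin that binds Dishevelled and builds actin filaments, ran from 42.6 to 56 CPM in 24 h females, from 1.35 to 3.02 CPM in 48 h females and from 35.4 to 70.3 CPM in 72 h females. Males had medians of 49.1, 61.7 and 161 CPM. The gene fell by 4.61 ± 0.25 in females and then rose by 4.84 ± 0.25, and the sexes differed by -4.96 ± 0.26 at 48 h (adjusted p = 9.94e-21), without overlap. At 72 h the difference of -1.46 ± 0.2 turned sign with the RPKM total. Dishevelled itself, dsh, was called in no comparison, with group medians between 88.3 and 167 CPM.

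Both gene models named for the EGF receptor were higher in females at 48 and 72 h. LOC102654710 and LOC100577393 are both annotated as epidermal growth factor receptor-like and are neighbouring gene models on the plus strand of linkage group 6, from 2894294 to 3042139 with 2 exons and from 3042404 to 3050962 with 11 exons. They may be parts of a single gene, which was not tested, and they are counted apart throughout. LOC102654710 ran from 6.91 to 12.4 CPM in 48 h females and had no count in any of the 6 males of 48 h, so that females were at least 75.7-fold higher against a floor of 3 counts over the group. LOC100577393 had a median of 0.156 CPM in females and 0.677 CPM in males at 24 h. It then ran from 27.2 to 74.2 CPM in 48 h females and from 104 to 274 CPM in 72 h females, but from 0.631 to 1.61 CPM and from 0 to 20.4 CPM in males. At 72 h LOC102654710 ran from 12.6 to 30.8 CPM in females and from 0 to 5.92 CPM in males. The males held 9 counts together, 6 of them in embryo 4 of queen 1. Their ratio to the floor of 48 h males was 11.7, with overlapping groups, which leaves out counting error and the spread between embryos. At 48 and 72 h no male reached the females of its age for either gene. LOC100577393 rose in females by 7.78 ± 0.39 from 24 to 48 h (adjusted p = 2.77e-21). It differed between the sexes by 5.4 ± 0.36 at 48 h (adjusted p = 2.82e-17) and by 5.17 ± 0.35 at 72 h (adjusted p = 6.57e-17), and LOC102654710 by 3.9 ± 0.51 at 72 h (adjusted p = 1.45e-08). The rise of LOC100577393 in males from 48 to 72 h, 2.05 ± 0.6 (adjusted p = 0.00377), was 1.01 and not called without both male embryos that stood apart.

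In CPM the EGF ligand moved little beside the models named for its receptor. LOC100577697, annotated as spitz-like, had medians of 12.3, 7.03 and 17.4 CPM in females and of 11.1, 4.58 and 7.68 CPM in males. The sexes overlapped at every time, and the differences of 0.57 ± 0.25 at 48 h and 0.85 ± 0.27 at 72 h were not called. LOC100577697 had 72 h medians of 4.25 RPKM in females and 0.355 RPKM in males, so that the size of the latter difference depended on the total. It rose in females from 48 to 72 h by 1.24 ± 0.22 (adjusted p = 4.3e-06). It fell in males from 24 to 48 h by 1.15 ± 0.24 (adjusted p = 0.00012), and by 0.96, under the fold threshold, without embryo 6 of queen 1 or without both. The FGF18-like ligand LOC100577390, which by its name would act on FGF receptors, rose in both sexes. Females ran from 12.8 to 65.2 CPM at 48 h and from 41.8 to 247 CPM at 72 h, and males from 0.645 to 4.52 CPM and from 2.31 to 50.3 CPM. It differed by 4.2 ± 0.49 at 48 h (adjusted p = 3.64e-10) and by 3.42 ± 0.45 at 72 h (adjusted p = 5.96e-09), when the male embryo 23 of queen 2 overlapped the lowest female. Its rise in males from 48 to 72 h, 2.67 ± 0.64, was 1.73 and not called without both male embryos that stood apart.

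The rhomboid family split into members of opposite sign. LOC726936, annotated as protein rhomboid-like after the protease that frees Spitz in *Drosophila*, ran from 68.3 to 112 CPM in 24 h females, from 1.36 to 5.2 CPM in 48 h females and from 15.1 to 28.1 CPM in 72 h females. Males ran from 93.2 to 159 CPM, from 232 to 363 CPM and from 257 to 485 CPM. The difference of -6.35 ± 0.23 at 48 h (adjusted p = 8.02e-26) followed a fall of 4.66 ± 0.22 in females and a rise of 1.14 ± 0.17 in males. Male counts before scaling were 724 to 1941 at 24 h and 648 to 1558 at 48 h, so that the size of this rise depended on the total. At 72 h the difference was -4.16 ± 0.2 (adjusted p = 5.09e-22), or -1.6 with the RPKM total. The rhomboid-related LOC412319 shared the fall in females, from a median of 159 to 12.3 CPM, and lay at 122 CPM in 48 h males, a difference of -3.39 ± 0.17 at 48 h. At 72 h its difference of -1.75 ± 0.16 turned sign with the RPKM total. In contrast, rho-6, rhomboid-6, ran from 51.9 to 74.7 CPM in 48 h females and from 0.968 to 3.73 CPM in 48 h males. It was higher in females by 4.41 ± 0.26 at 48 h (adjusted p = 9.92e-19) and by 2.63 ± 0.29 at 72 h (adjusted p = 5.81e-11). LOC724287 had no count in 72 h males and exceeded that floor at least 14.2-fold in 72 h females, and LOC726718 held 3 counts over the 72 h males, a ratio of 21.9 with an interval from 7.47 to 107. The gene rho-5 was lower in 72 h females by 1.7 ± 0.28, a sign that turned with the RPKM total.

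Inhibitors and substrates of the EGF receptor completed the set. Sprouty, an inhibitor of receptor tyrosine kinase signalling that is itself induced by it in *Drosophila*, is the gene sty. It ran from 1.89 to 3.98 CPM in 24 h females, from 40.2 to 64 CPM in 48 h females and from 21.1 to 66.5 CPM in 72 h females. In males it ran from 2.31 to 4.18 CPM at 48 h and from 4.21 to 16.9 CPM at 72 h, below all females. The difference was 4.06 ± 0.26 at 48 h (adjusted p = 9.87e-18) and 2.13 ± 0.28 at 72 h (adjusted p = 5e-09). The related Spred was higher in females at 72 h only, by 1.13 ± 0.25 (adjusted p = 8.6e-05), with medians of 18.1 and 8.52 CPM. Of the substrates, Eps-15, an endocytosis protein, was called in no comparison, with group medians between 114.6 and 165.5 CPM. LOC408693 was lower in 72 h females by 1.45 ± 0.24, a sign that turned with the RPKM total.

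BMP signalling held 1 called gene of 4 at 48 h and at 72 h. Decapentaplegic, the BMP ligand that patterns the dorsoventral axis in *Drosophila*, was called in no comparison. The gene dpp ran from 76.1 to 113 CPM in 48 h females and from 98.2 to 194 CPM in 48 h males, and from 64.1 to 96.9 CPM and from 71.7 to 134 CPM at 72 h, with overlap at each time. Its log2 fold change was -0.54 ± 0.13 at 48 h (adjusted p = 0.00026) and -0.27 ± 0.14 at 72 h (adjusted p = 0.067). The lack of a call at 72 h holds for TMM only, as the medians of dpp in RPKM of the authors were 55.8 in females and 9.74 in males. Smad4 and Tak1, a co-Smad and a kinase named for TGF-beta, were called in no comparison either. Mad, the Smad that takes the Dpp signal to the nucleus, was the exception. It ran from 65.4 to 98.6 CPM in 48 h females and from 33.3 to 47.9 CPM in 72 h females, against 209 to 342 CPM and 224 to 323 CPM in males. It was lower in females by 1.8 ± 0.12 on the log2 scale at 48 h (adjusted p = 1.06e-16) and by 2.78 ± 0.13 at 72 h (adjusted p = 3.34e-22). With the RPKM total the latter value was -0.19. It fell in females in both steps, by 1.11 ± 0.12 and 1.02 ± 0.12.

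**Figure D4:**
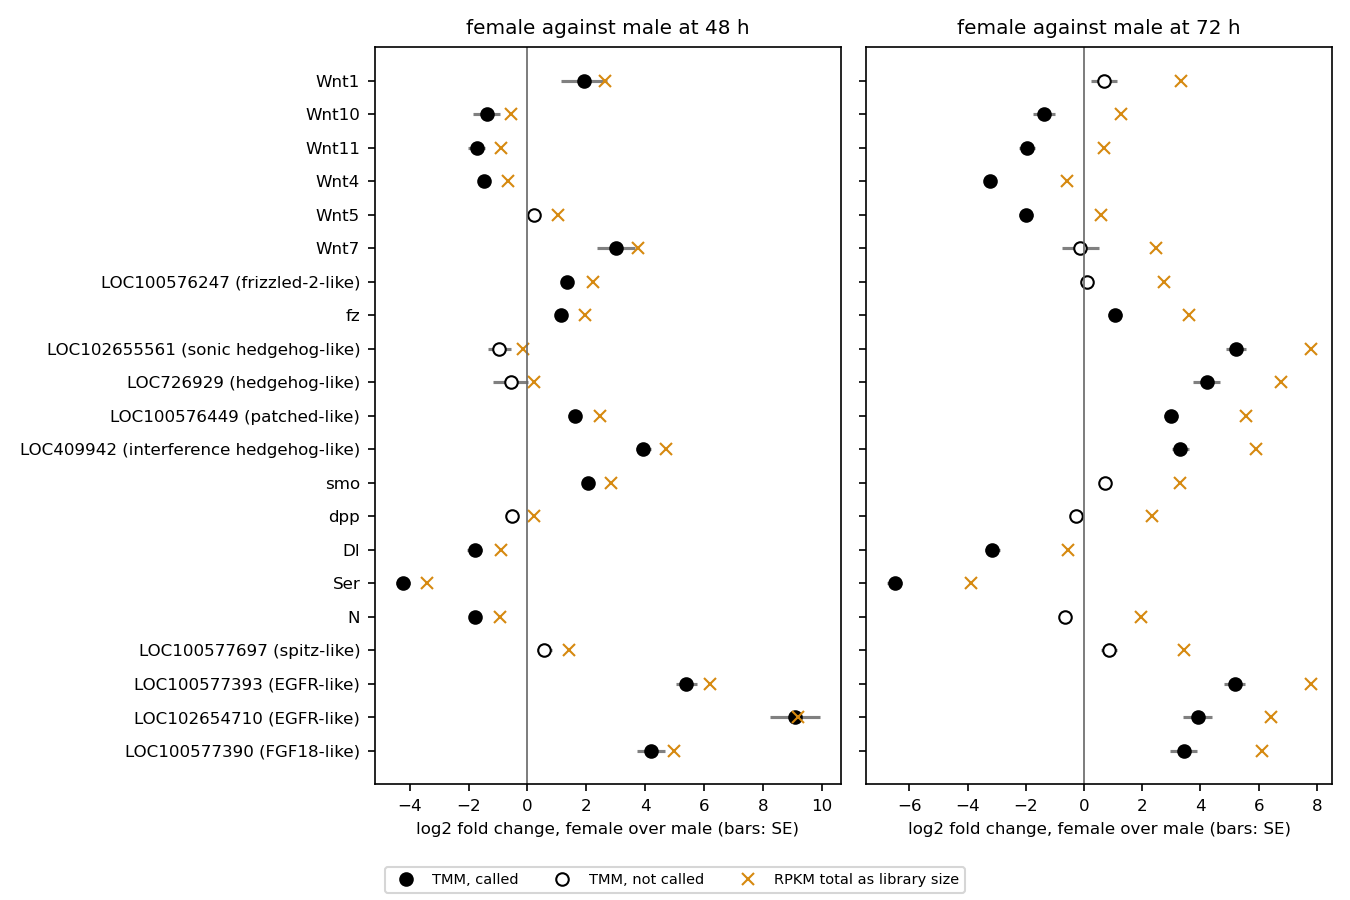
Log2 fold change of females over males (horizontal axis) for the 21 tested ligands and receptors at 48 h (left) and 72 h (right), from TMM-normalized counts (circles, filled where called, bars give SE) and with the RPKM total as library size (crosses). Serrate stays lower in females with either total, at -6.5 and -3.89 at 72 h, and the called Hedgehog genes stay higher, whereas Wnt5, Wnt10 and Wnt11 cross from below to above 0 at 72 h.

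The leading ligand of an embryo changed with sex and time. Levels of different genes are compared here in RPKM of the authors, reads scaled by gene length and library total, since longer genes collect more reads. In 24 h embryos dpp led, with medians of 62.4 RPKM in females and 59.8 RPKM in males, and was followed by Wnt4 and Ser at 16.3 and 15.1 RPKM in females and by Ser and Wnt4 at 17.2 and 15.6 RPKM in males. In 48 h females dpp still led at 42.7 RPKM, before Wnt4 at 12.3 RPKM. In 48 h males dpp had 34 RPKM, Wnt4 19.3 RPKM and Ser 15.2 RPKM. By 72 h the order had parted. In females LOC102655561 came first at 82.8 RPKM, then dpp at 55.8 RPKM, LOC726929 at 36.3 RPKM and Wnt4 at 24.8 RPKM. In males Wnt4 came first at 39.8 RPKM, then Ser at 19.1 RPKM, dpp at 9.74 RPKM and Dl at 8.46 RPKM. Neighbours in these orders were not tested against each other. Of all CPM on pathway genes, the patched-like LOC100576449 took 11.3% and LOC102655561 8.19% in 72 h females, and Ser took 23.3% and Wnt4 15% in 72 h males.

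From 24 to 48 h 19 of the 65 genes rose and 16 fell in females, beside 32.4% and 26.5% of all genes, and 8 rose and 7 fell in males, beside 10.9% and 10.4%. From 48 to 72 h 22 rose and 6 fell in females, beside 20.7% and 14% of all genes, and 19 rose and 6 fell in males, beside 16.7% and 11.6%. Pathway genes made up 20 of the 22 and 5 of the 6 in females, and 17 of the 19 and 1 of the 6 in males. In that last step 8 of 13 ligands rose in males and 7 rose and 1 fell in females. Of the 8 in males, Wnt7 and LOC100577390 were not called without both male embryos that stood apart. Wnt11, also among the 8, turned sign with the RPKM total. In males both steps depended on the total, with 4 higher and 24 lower from 24 to 48 h and 3 higher and 33 lower from 48 to 72 h with the RPKM total. Without both male embryos that stood apart, 8 rose and 5 fell in males in the first step and 15 rose and 4 fell in the second. Between the sexes the first step differed for 33 of the 65 genes, 18 towards females and 15 towards males, beside 29.3% and 26.5% of all genes, and these were 32 higher and 9 lower with the RPKM total. The second step differed for 32, with 16 in each direction, beside 23.3% and 20.5%, and with the RPKM total 41 were higher and 1 was lower.

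Further genes that the name search had not found were gathered by a separate list of product names from the same pathways. The name alone placed each gene, and matches in another sense were not set apart. One example is csw, corkscrew, which was counted under BMP signalling. Of its 64 tested genes 31 were higher and 7 lower in females at 48 h, beside 33.7% and 27.6% of all genes, and 32 were higher and 13 lower at 72 h, beside 38.2% and 26.8%. Of the 13 lower at 72 h, 7 turned sign with the RPKM total. The medians were 0.86 and 0.99. In Hedgehog signalling Su(fu), which holds back Cubitus interruptus, was the single gene tested, and it was higher in females by 4.95 at 48 h and 3.21 at 72 h on the log2 scale. It had a median of 21.5 CPM in 48 h females and 0.559 CPM in 48 h males, where 24 h embryos of both sexes had 24.2 and 16.1 CPM. In BMP signalling cv, crossveinless, which carries BMP ligands outside the cell in *Drosophila*, was higher by 6 and 5.97, and shn, schnurri, a partner of Mad, by 3.84 at 48 h. The receptor sax, saxophone, was higher by 2.97 at 72 h.

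Under Notch signalling the list held 22 tested genes, 11 higher and 2 lower in females at 48 h, beside 33.7% and 27.6% of all genes, and 9 higher and 6 lower at 72 h, beside 38.2% and 26.8%. Among the 11 were su(Hw), suppressor of hairy wing, and the fucosyltransferases LOC726095 and Fucta, whose names alone do not tie them to Notch. Higher were h, hairy, a transcriptional repressor, at 133.1 to 213.6 CPM in 48 h females against 0 to 0.645 CPM in 48 h males, and O-fut1, the enzyme that puts fucose on Notch, at 3.6 to 9.87 CPM in 48 h females with no count in 48 h males. The channel-like bib, big brain, had medians of 751.8 CPM in females and 7.91 CPM in males at 72 h, a difference of 6.87. Lower were LOC727399, numb-like, named for an inhibitor of Notch, by 2.68 at 48 h and 5.15 at 72 h on the log2 scale. Its median in 72 h males was 1232 CPM. The ubiquitin ligase neur, neuralized, which acts on Delta, was lower by 2 at 48 h, and mam, mastermind, the coactivator of Notch, by 2.63 at 72 h.

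In Wnt signalling 7 of 12 genes of the list were higher and 2 lower in females at 48 h, beside 33.7% and 27.6% of all genes, and 7 were higher and 3 lower at 72 h, beside 38.2% and 26.8%. The armadillo-like LOC550976, named for beta-catenin, ran from 14.4 to 19.4 CPM in 48 h females and had no count in 48 h males. The gene arm itself was higher by 1.86 at 72 h, and por, porcupine, which attaches the lipid to Wnt proteins, by 2.08. The corepressor gro, groucho, had medians of 333.1 CPM in females and 3436 CPM in males at 72 h, a difference of -3.53, and the groucho-like LOC408894 one of -3.06. In EGF and FGF signalling 7 of 19 genes were higher and 3 lower at 48 h, beside 33.7% and 27.6% of all genes, and 9 were higher and 4 lower at 72 h, beside 38.2% and 26.8%. The genes kek6 and kek1, of a family whose founding member inhibits the EGF receptor in *Drosophila*, were higher by 5.99 and 4.27 at 48 h. The FGF receptor htl, heartless, was lower by 2.53, and ksr, a scaffold of the Ras cascade, by 1.93 at 48 h and 2.78 at 72 h. The Ets factors LOC100576369, pokkuri-like, and LOC102656666, pointed-like, were higher by 4.94 and 3.1 at 72 h. None of the values given above for genes of the list turned sign with another total. With the RPKM total, however, those lower in females shrank and those higher in females grew. At 72 h mam was then at -0.07, ksr at -0.19, LOC408894 at -0.44, gro at -0.88 and LOC727399 at -2.54. The differences of htl and neur at 72 h, -2.35 and -2.04, became 0.22 and 0.57.

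Of the 21 genes that share only a word with the pathways, 10 belong to the syntaxins and their partners, which fuse vesicles with membranes. Another 4 belong to mitochondria, rho-7 among them, 5 to the processing of DNA, RNA or protein, and 2 are extracellular or membrane proteins. Of these 2, LOC411019 was found by the word tolloid and LOC100578434 by the letters axin in pentraxin. At 48 h 6 of the 21 were higher and 4 lower in females, beside 33.7% and 27.6% of all genes. At 72 h 9 were higher and 3 lower, beside 38.2% and 26.8%. Syx1A, syntaxin 1A, ran from 25.8 to 49.4 CPM in 48 h females and from 320 to 776 CPM in 48 h males, and from 41.9 to 84.8 CPM and from 1035 to 1376 CPM at 72 h, with differences of -3.94 ± 0.18 and -4.4 ± 0.19. The neuropilin and tolloid-like LOC411019 was lower in females by 3.66 ± 0.38 at 48 h and 6.64 ± 0.39 at 72 h on the log2 scale. LOC100578434, a protein with sushi, EGF and pentraxin domains, was higher by 4.3 ± 0.44 and 5.57 ± 0.44. STXBP5, tomosyn, a regulator of syntaxin, ran from 138 to 288.5 CPM in 48 h females and from 18.8 to 29.3 CPM in 72 h females, and its difference of 3.49 ± 0.27 at 48 h was gone at 72 h, when the groups overlapped at -0.43 ± 0.28. From 48 to 72 h in males Tapdelta, a part of the channel that brings proteins into the endoplasmic reticulum, fell by 1.33 ± 0.21 on the log2 scale, from a median of 30.1 to 12.7 CPM. Syx8, syntaxin 8, fell in the same step by 1.13 ± 0.2, and by 0.92, under the fold threshold, without both male embryos that stood apart.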

How the data were processed

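The authors made cDNA from total RNA of single embryos with SMART-Seq v4, amplified it, trimmed the reads and aligned them to the Amel_4.5 genome with TopHat2. The tool that counted reads, and whether it used the strand, are not given in the sources used here. The authors deposited counts per gene without normalization and RPKM values of the same genes. Methods and labels give different laying windows. For the present results, edgeR 4.0.16 in R 4.3.3 normalized these counts by TMM and dropped genes that filterByExpr found too low (fewer than 10 counts in too few embryos, or fewer than 15 in all). Its quasi-likelihood F-test was run in 1 fit of 36 embryos with 6 groups of sex and time and a queen term, and p-values were adjusted by Benjamini and Hochberg over all genes tested.

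The library total behind RPKM was worked out from each gene as its counts over its RPKM and served as an alternative library size. Other alternatives were DESeq2 1.42.0, upper-quartile scaling, each queen alone and leaving out each embryo. A count of 0 in a group was read as up to 3 counts over the group. Ratios to this floor leave out the counting error of the other group and the spread between embryos.

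The members, gene lists and tests were chosen with earlier results of these data known. Named are all tested ligands and receptors, and for each comparison the 2 highest and 2 lowest called genes with the same sign in each queen and, for contrasts, no overlap. Other pathway genes were named after their values were seen. From the separate list, at most 2 higher and 2 lower genes per pathway and time were named by the same rule. Scripts were tested on simulated data. Sequences were not analysed here.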

Additional observations from a re-analysis of the deposited data

Results flagged for a closer look

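Single embryos stood apart from the other 5 of their group, by a Dixon test at the 95% level, in 16 of 119 groups tested, of which chance gives about 1 in 20. Embryo 6 of queen 1 among the 48 h males was lowest for Ser at 136.9 CPM (next 266), for Dl at 34.41 CPM (next 90.89) and for Wnt10 at 0.9471 CPM (next 2.903), and highest for smo at 34.25 CPM (next 19.86). Embryo 23 of queen 2 among the 72 h males was highest for Wnt4 at 983.4 CPM (next 593.6), for LOC100577390 at 50.26 CPM (next 18.26), for Wnt1 at 23.09 CPM (next 5.341) and for LOC100577393 at 20.38 CPM (next 3.948). Embryo 30 of queen 2 among the 48 h females was highest for LOC100577697 at 10.93 CPM (next 7.722) and for LOC102655561 at 4.943 CPM (next 1.166).

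The other such values were Wnt10 at 1.058 CPM in embryo 26 of queen 1 (next 0.4793), LOC100576449 at 54.62 CPM in embryo 5 of queen 1 (next 46.58) and Dl at 21.69 CPM in embryo 11 of queen 2 (next 28.26), all 24 h males. In females they were Wnt7 at 7.576 CPM in embryo 7 of queen 1 at 48 h (next 3.043), LOC102655561 at 135.1 CPM in embryo 15 of queen 1 at 72 h (next 204.3), and the number of genes with a count, 68 in embryo 4 of queen 1 at 72 h (next 67).

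Steps over time that differed most between the sexes, by the interaction in the quasi-likelihood test and with the same sign in each queen, were those of LOC102654710 (9.64), LOC100577393 (6.99), LOC726936 (-5.81) and DAAM (-4.95) from 24 to 48 h, and of LOC102655561 (6.16), LOC726584 (5.79), LOC102654710 (-5.19) and STXBP5 (-3.92) from 48 to 72 h, as log2 changes of females over males. The values of LOC102654710 and LOC726584 depend on groups without any count and are no measure of size.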

How the results depend on the processing

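The scaling and, in males, the queen mattered most. With the RPKM total as library size 10 of 116 values of named genes reversed, namely between the sexes at 72 h Wnt5 to 0.59, Wnt10 to 1.27 and Wnt11 to 0.67, from 48 to 72 h in males N to -0.16, Wnt11 to -0.1 and LOC100576247 to -0.03, and in the interaction of that step Dl to 0.34, LOC100576247 to 0.51, Wnt4 to 0.05 and smo to 0.48. Counts of the 65 genes (higher and lower) then were 36 and 8 between the sexes at 48 h, 53 and 4 at 72 h, 4 and 24 in males to 48 h, 3 and 33 in males to 72 h, 32 and 9 and 41 and 1 in the interactions, and 2 lower in females to 72 h. With the total of the counts they were 32 higher at 48 h and 7 lower at 72 h between the sexes, 2 lower in females to 72 h, 12 and 11 in males to 72 h, and 28 higher in the first interaction. DESeq2, by its size factors or its Wald test, gave 3 lower in males to 72 h. Without the minimum fold, 35 were higher at 48 h between the sexes, 29 rose in females to 48 h, 19 fell in females and 14 in males to 72 h, and 18 rose and 17 fell in males to 48 h. Pathway genes alone gave 1 lower in males to 72 h and 17 higher between the sexes at 72 h. At an unadjusted p-value under 0.01, 1 was higher at 24 h. Queen 1 alone gave 3 and 3 in males to 48 h, 9 and 2 in males to 72 h and 1 lower at 24 h, and queen 2 alone 1 lower in males to 72 h, each with 3 embryos a group. The cause of these moves was not tested.

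Leaving out 1 embryo at a time gave 0 to 0 higher and 0 to 1 lower at 24 h, 20 to 23 and 15 to 17 at 48 h, 25 to 27 and 16 to 16 at 72 h, 18 to 20 and 16 to 16 in females to 48 h, 21 to 23 and 4 to 6 in females to 72 h (4 without embryo 8 of queen 1 at 48 h), 8 to 8 and 6 to 7 in males to 48 h, 18 to 21 and 4 to 7 in males to 72 h (4 without embryo 17 of queen 2 at 72 h), and 16 to 20, 15 to 17, 15 to 16 and 15 to 18 in the interactions. Leaving out both male embryos that stood apart, chosen after seeing the data, moved no count by over 1.5 times. A replicate block could be fitted to 14 embryos with 5 shared numbers, whose correlations from -0.22 to 0.15 show no pairing. It gave 19 and 16 at 48 h, 18 and 17 at 72 h, 19 and 16 and 21 and 8 in females, 16 and 4 in males to 72 h, and 13 and 16 in the second interaction. In 72 h males, 3 counts are 2.31 to 4.21 CPM, so that levels near or below this rest on very few counts.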
